A study of Mus musculus with 2 samples.

Results

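The genes described here encode receptor chains through which helper T cells sense the cytokines IL-2, IL-4, IL-7, IL-9, IL-13, IL-21, IL-25 and TSLP. They are *Il2ra*, *Il2rb*, *Il2rg*, *Il4ra*, *Il7r*, *Il9r*, *Il21r*, *Il17rb*, *Crlf2* and *Il13ra1*, 10 of the 21938 protein-coding genes of GENCODE M21 on chromosomes 1 to 19, X and Y. They were chosen by name. Each was studied over its locus, the gene body plus 20 kb on either side. Gata3 ChIP-seq reads were available from 2 libraries of mouse TH2 cells grown in culture from spleen, called library 1 and library 2 after their replicate numbers. Both belong to a single condition, so no treatments or genotypes were compared. Within the study's methods, naïve CD4+ T cells were driven towards TH2 with antibodies to CD3 and CD28, IL-2, IL-4 and an antibody to IFNγ, so ligands of several of these receptors were present in such cultures. The study's mice were on the C57BL/6 background, while the genotype, age and number of animals behind each library are not given in the sources used here, and the spread between the libraries may be technical.

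The common gamma chain, encoded by *Il2rg*, is a shared signalling subunit that pairs with a private chain to form the receptors for IL-2, IL-4, IL-7, IL-9, IL-15 and IL-21. These receptors signal through the kinases Jak1 and Jak3 to STAT factors, among them STAT5 after IL-2 and IL-7 and STAT6 after IL-4. *Il7r* also pairs with *Crlf2* to bind TSLP, *Il4ra* also pairs with *Il13ra1* to bind IL-4 or IL-13, and *Il17rb*, a chain of the IL-25 receptor, belongs to the IL-17 receptor family and not to the gamma chain family. Gata3 is the transcription factor that defines TH2 cells and binds DNA at short sites built around the letters GATA.

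Library 1 held 40526613 reads and library 2 held 24970952, of which 40504814 and 24959052 lay on the chromosomes used. On average a 200-bp window held 2.97 and 1.83 reads. Heights are given as RPM, the reads in a 200-bp window per 1000000 reads of that library on these chromosomes. As no input library was used here, the reads of each window were compared with the library mean, the 5-kb mean or the 10-kb mean, whichever was highest, in a one-sided exact Poisson test with a q of 0.01 after Benjamini-Hochberg adjustment. Those local means contain the reads of the peak, so a fold over the local background understates a fold over the surrounding sequence. A peak was counted as shared when called in both libraries at overlapping positions. At the library mean, 12 reads (0.296 RPM) were needed for a call in library 1 and 10 reads (0.401 RPM) in library 2, so lower sites were not detectable. Chromosome X had 0.444 of the autosomal read density in library 1 and 0.522 in library 2, which bears on *Il2rg* and *Il13ra1*. The labels' extraction protocol speaks of ILC2 and every other field of TH2 cells. In both libraries the stretch between the Trdd and Trdj segments (GRCm38, chr14:54113468-54136837), which T cells delete when they rearrange the *Tcra* locus, held few reads, at 0.0399 and 0.0453 of the density beside it.

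Within the 10 loci, 29 distinct peaks were shared by both libraries. *Il2ra* had 8, *Il7r* and *Il17rb* had 4 each, *Il2rb*, *Il2rg* and *Il4ra* had 3 each, *Il9r* and *Crlf2* had 2 each, *Il21r* had 1 and *Il13ra1* had 0. The single peak of *Il21r* was also counted at *Il4ra*, since these genes are neighbours. A shared peak was thus present in the locus of 9 of 10 receptor genes, while 54.8% of all protein-coding genes had one. In the gene body 6 of 10 had a shared peak, against 29.4% of all genes, and within 2 kb of the start site 5 of 10 had one, against 11.7%. At a q of 1e-10 there were 8 peaks at 6 of the genes, *Il2ra*, *Il2rb*, *Il2rg*, *Il4ra*, *Il7r* and *Il9r*, against 19.6% of all genes at that setting. The gene body then held a peak at 5 (9.60% of all genes) and the promoter at 2 (2.77% of all genes). With peaks at least 5-fold over the background in both libraries, 5 of 10 had one in the locus (24.3% of all genes), 2 in the gene body (11.3%) and 2 at the promoter (2.66%). At that setting *Il4ra* and *Il21r* were both counted through the peak that they share. The median receptor locus had 3 shared peaks and the median locus of all genes had 1. These shares describe a short list of named genes, which was drawn up with earlier results of these data known.

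Sequence from the tallest shared peak of each locus is printed below, to show letters near its summit. It is from the GRCm38 reference, plus strand, in lower case. Each stretch lies around a match, and only those of *Il4ra*, *Il21r* and *Il17rb* contain the summit. The *Il9r* match lies 91 bp from its summit. Capitals mark the match nearest the summit to the GATA letters AGATAA, in which the first letter may also be T and the last may also be G. Any AP-1 letters beside it (TGACTCA, in which the middle letter may also be G) are in capitals too. Where no GATA match lay within 100 bp of the summit, capitals mark TTC and GAA separated by 4 bases, a spaced STAT match of the kind STAT6 is known to prefer. The *Il2rb* stretch is kept short because it lies in an untranslated first exon. All letters were searched on both strands.
*Il2ra*, intron 1, chr2:11662940-11662999: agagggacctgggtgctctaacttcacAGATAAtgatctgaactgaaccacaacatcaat
*Il2rb*, start of the gene, chr15:78495166-78495195: cacacctagcacTGATAAgatctcctccta
*Il2rg*, exon 5 and its edge, chrX:101266316-101266375: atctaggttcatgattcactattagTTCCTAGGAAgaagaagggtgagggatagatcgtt
*Il4ra*, upstream, chr7:125543608-125543667: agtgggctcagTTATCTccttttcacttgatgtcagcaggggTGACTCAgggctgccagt
*Il7r*, intron 2, chr15:9524037-9524096: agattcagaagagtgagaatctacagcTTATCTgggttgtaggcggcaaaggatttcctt
*Il9r*, intron 1, chr11:32196261-32196320: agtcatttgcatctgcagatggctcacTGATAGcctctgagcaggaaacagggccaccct
*Il21r*, upstream, chr7:125585313-125585372: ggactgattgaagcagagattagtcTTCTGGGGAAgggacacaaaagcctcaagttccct
*Il17rb*, upstream, chr14:30009331-30009390: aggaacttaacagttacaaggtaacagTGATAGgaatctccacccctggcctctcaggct
*Crlf2*, downstream, chr5:109549100-109549159: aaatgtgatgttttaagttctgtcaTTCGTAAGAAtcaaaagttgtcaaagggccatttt

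**Figure D1:**
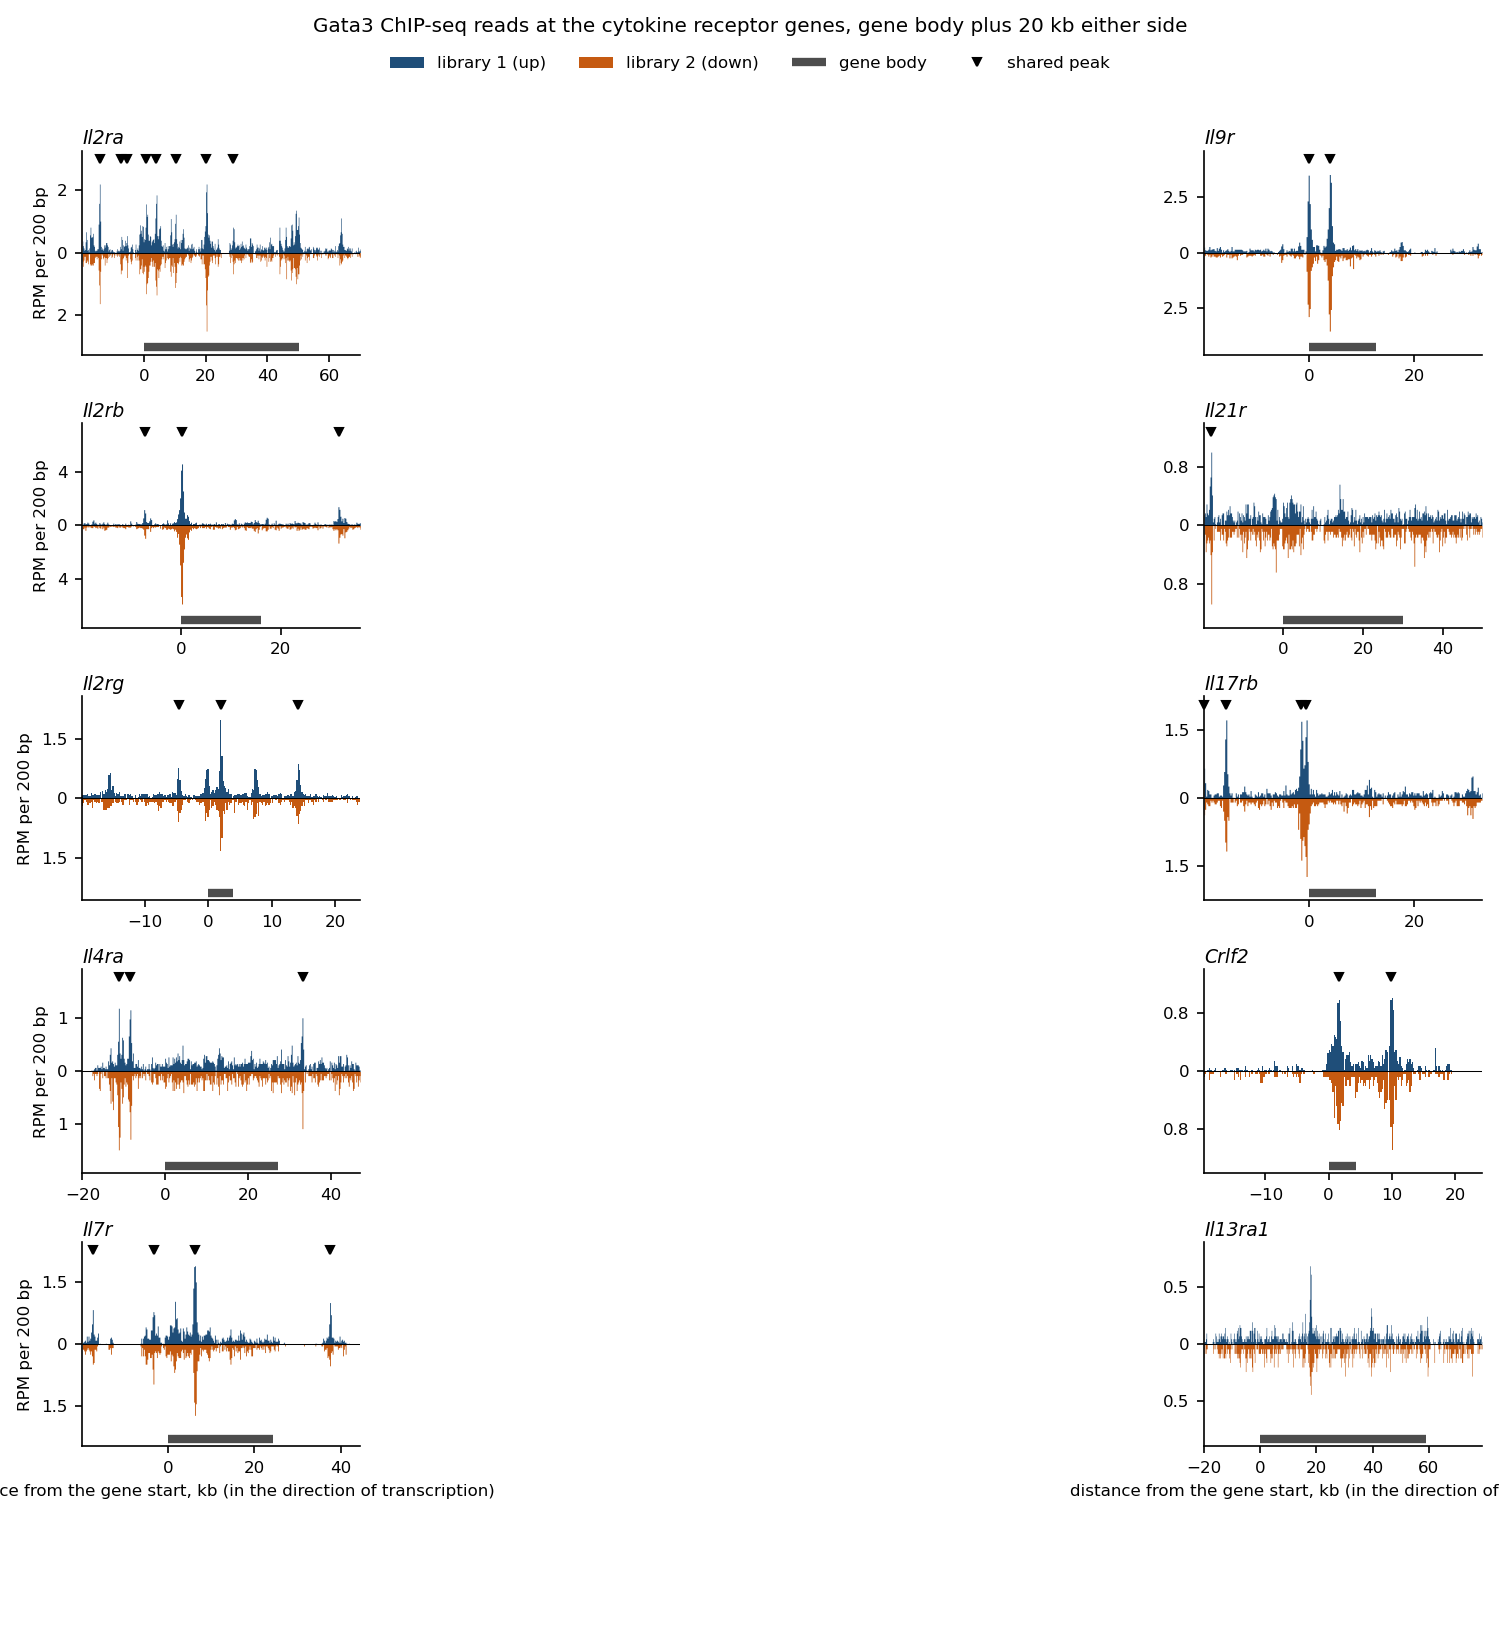
Reads per side-by-side 200-bp window (RPM) against the distance in kb from the start of each gene, read in the direction of transcription, with library 1 upwards and library 2 downwards, the gene body as a grey bar and shared peaks as triangles. Each panel has its own vertical scale. *Il2rb* and *Il9r* show tall peaks at their starts, *Il2ra* shows peaks along intron 1 and upstream, and *Il13ra1* has 0 shared peaks.

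The receptor for IL-2 is built from alpha, beta and gamma chains, and shared Gata3 peaks were present at the genes of all of them. *Il2ra* encodes the alpha chain (CD25), which raises the affinity for IL-2 and is induced on activated T cells. It lies on the plus strand of chromosome 2 (GRCm38, chr2:11642807-11693193) and has 8 exons. Of its 8 shared peaks, 5 lay in intron 1 and 3 upstream. Of 3510 genes of like length, *Il2ra* included, 12 (0.342%) had at least as many shared peaks in the locus. This share was not computed at the stricter settings, at which *Il2ra* had 2 shared peaks (q of 1e-10) and 0 (at least 5-fold).

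The tallest *Il2ra* peak had its summit in intron 1, 20243 bp past the start site, at chr2:11662651-11663500. Its summit window held 91 reads in library 1, or 2.25 RPM (95% exact Poisson interval 1.81 to 2.76, counting error only), and 63 reads in library 2, or 2.52 RPM (1.94 to 3.23). The intervals overlapped. The peak was 4.34-fold over the local background in library 1 (one-sided exact Poisson p = 1.3e-29) and 5.38-fold in library 2 (one-sided exact Poisson p = 1.1e-25). Ranked by the lower library, it stood at the 92.6 percentile of the 23806 shared peaks of the genome. Its AGATAA match is the one printed above, 80 bp before the summit.

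A second *Il2ra* peak lay 14307 bp upstream, at chr2:11628001-11628800, with 89 reads (2.20 RPM, 5.49-fold) in library 1 and 41 reads (1.64 RPM, 4.93-fold) in library 2. It held 2 TGATAA matches, the nearer 6 bp from the summit. The start of *Gm17490*, an uncharacterised gene model, was nearer to this peak (2236 bp) than that of *Il2ra*, and the locus of *Gm17490* defined in the same way held 6 shared peaks. Close to the *Il2ra* start, a peak in intron 1, 693 bp past the start site, held 63 reads (1.56 RPM) and 36 reads (1.44 RPM). This promoter peak was 2.50-fold and 2.72-fold over a high local background, was not called at a q of 1e-10, and had no GATA match within 100 bp.

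The remaining *Il2ra* peaks ran from 0.518 to 1.36 RPM in the lower library. Those in intron 1 at 10243 bp and 28993 bp past the start site each had 3 GATA matches within 100 bp of the summit. The peak 3943 bp past the start site, with 80 reads in library 1 and 34 in library 2, had none. The lowest peaks, 5607 bp and 7307 bp upstream, held 22 and 21 reads in library 1 and 20 and 18 in library 2 and were lost with 400-bp or 100-bp windows. *Il15ra*, the gene of the private alpha chain for IL-15, starts within the same locus, and its own locus had 0 shared peaks.

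*Il2rb* encodes the beta chain, a signalling subunit shared by the IL-2 and IL-15 receptors. It lies on the minus strand of chromosome 15 (chr15:78479256-78495271) and has 10 exons in its main transcript. The tallest peak of all 10 loci lay at its start, at chr15:78494701-78495700, with both summits at the same position, 71 bp inside the first exon of transcript Il2rb-201. The main transcript, Il2rb-202, starts 1444 bp further along the gene. The summit window held 203 reads in library 1, or 5.01 RPM (95% exact Poisson interval 4.35 to 5.75), and 168 reads in library 2, or 6.73 RPM (5.75 to 7.83). It was 5.68-fold (one-sided exact Poisson p = 1.2e-82) and 5.83-fold (one-sided exact Poisson p = 2.7e-70) over the local background and stood at the 99.9 percentile. A TGATAA match lay 19 bp from the summit.

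The *Il2rb* start peak was higher in library 2, with a ratio of library 1 to library 2 of 0.745. The difference did not pass the test over all shared peaks (two-sided exact binomial test, Benjamini-Hochberg adjusted p = 0.10), which covers counting error only. It passed when the libraries were scaled by their median ratio over shared peaks (two-sided exact binomial test, adjusted p = 0.0018), a setting at which 342 of all shared peaks (1.44%) differed, so whether this height differed depended on the scaling. That median ratio was taken in the highest windows of library 1, which tilts it towards library 1. Heights are also capped by the removal of duplicates, and the effect of this cap on the ratio at this tall peak was not tested. The other *Il2rb* peaks were lower. One 7329 bp upstream held 50 and 25 reads (1.23 and 1.0 RPM) with a GATA and a spaced STAT match, and another lay 15706 bp past the gene end inside *Tmprss6*, a membrane protease gene, with 64 and 35 reads (1.58 and 1.40 RPM) and 2 GATA matches.

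*Il2rg*, the gene of the common gamma chain, lies on the minus strand of chromosome X (chrX:101264378-101268255) and has 8 exons. Its tallest peak lay in exon 5, at chrX:101265951-101266550, with 81 reads (2.0 RPM, 95% exact Poisson interval 1.59 to 2.49) in library 1 and 36 reads (1.44 RPM, 1.01 to 2.0) in library 2. It was 5.41-fold (one-sided exact Poisson p = 9.9e-33) and 4.76-fold (one-sided exact Poisson p = 7.4e-14) over the local background. The summit lay 2005 bp past the start, just beyond the 2-kb limit used for promoters, and 1184 bp from the nearest coding start. It also lay in the body of *Gm20489*, an overlapping gene model on the same strand, so the peak belongs to both annotations. There was no GATA match within 100 bp. The spaced STAT match printed above overlaps the edge of exon 5 and runs into the intron beside it.

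The other *Il2rg* peaks lay nearer to neighbouring genes than to *Il2rg*. One was 478 bp from the start of *Foxo4*, a forkhead transcription factor gene, with 36 reads (0.889 RPM) and 19 reads (0.761 RPM). Another was 1180 bp from the start of *Med12*, a Mediator subunit gene, with 33 reads (0.815 RPM) and 15 reads (0.601 RPM). Neither had a GATA match. At the *Il2rg* start itself library 1 alone had a peak 145 bp upstream, with 41 reads (1.01 RPM, 2.96-fold), where library 2 held 10 reads (0.401 RPM, 1.45-fold) and needed 20 for a call.

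For the chains that bind IL-4 and IL-21, shared peaks were found only outside the gene bodies. *Il4ra*, whose product binds IL-4 in both receptor types and IL-13 together with *Il13ra1*, lies on the plus strand of chromosome 7 (chr7:125552120-125579474) and has 11 exons. By the lower of the libraries its tallest peak was 8470 bp upstream, at chr7:125543351-125543900, with 53 reads (1.31 RPM, 4.09-fold) in library 1 and 34 reads (1.36 RPM, 4.34-fold) in library 2. A GATA match and an AP-1 match, letters bound by Fos and Jun proteins, both lay within 30 bp of the summit, as printed above. A second peak 11220 bp upstream held 48 reads (1.19 RPM) and 47 reads (1.88 RPM) with no GATA match. It was the higher in library 2 and the one *Il4ra* peak called at a q of 1e-10. Within 2 kb of the *Il4ra* start the highest windows held 11 and 10 reads, or 0.272 and 0.401 RPM.

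The third *Il4ra* peak was the one shared with *Il21r*, the chain that binds IL-21. It lay between these genes, 5876 bp past the end of *Il4ra* and 18079 bp before the start of *Il21r*, at chr7:125584851-125585550. It held 43 reads (1.06 RPM, 5.22-fold, one-sided exact Poisson p = 1.3e-17) in library 1 and 27 reads (1.08 RPM, 5.31-fold, one-sided exact Poisson p = 8.0e-12) in library 2. The heights were nearly the same in both libraries, and it was among the 5 peaks at least 5-fold over the background in both. No GATA match was found within 100 bp, and a spaced STAT match lay 7 bp from the summit.

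*Il21r* itself (chr7:125603429-125633570, plus strand, 9 exons) had no other shared peak, and at least 1 was found at 60.5% of the genes of like length. Within 2 kb of its start the highest windows held 17 reads in each library, 1871 bp past the start in library 1 and 1979 bp before it in library 2. Library 1 alone had a peak 2179 bp upstream, with 21 reads (0.518 RPM, 2.75-fold) where library 2 held 6, and another in intron 1, with 23 reads (0.568 RPM) and 3 GATA matches where library 2 held 2.

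*Il7r* encodes the alpha chain for IL-7, which sustains naïve and memory T cells, and it also serves in the TSLP receptor. The gene lies on the minus strand of chromosome 15 (chr15:9505788-9530176) and has 8 exons. Its tallest peak was in intron 2, 6176 bp past the start, at chr15:9523501-9524500, with 88 reads (2.17 RPM, 95% exact Poisson interval 1.74 to 2.68) and 44 reads (1.76 RPM, 1.28 to 2.37). It was 4.54-fold (one-sided exact Poisson p = 5.5e-30) and 4.31-fold (one-sided exact Poisson p = 4.3e-15) over the local background, with 1 GATA match, 67 bp from the summit. The other peaks were lower, and each had a GATA match. One 3274 bp upstream held 32 reads (0.790 RPM, 3.10-fold) in library 1 and 24 reads (0.962 RPM, 3.55-fold) in library 2. Another, 13088 bp past the gene end, held 41 reads (1.01 RPM, 5.76-fold) and 14 reads (0.561 RPM, 4.55-fold). The last, 17324 bp upstream, stood at 0.561 RPM in the lower library. Of genes of like length, 3.73% had as many as 4 shared peaks. Near the *Il7r* start library 1 alone had a peak, in intron 1, 1726 bp past the start site, with 42 reads (1.04 RPM) against 13 reads (0.521 RPM) in library 2.

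*Il9r* encodes the private chain for IL-9, a cytokine of TH2-related and TH9 cells and of mast cell responses. It lies on the minus strand of chromosome 11 (chr11:32187541-32200279) and has 9 exons. Its 2 shared peaks were the tallest of the receptor loci after that of *Il2rb*, and both had GATA matches. In intron 1, 4079 bp past the start at chr11:32195801-32196700, the summit held 147 reads (3.63 RPM, 95% exact Poisson interval 3.07 to 4.27) in library 1 and 88 reads (3.53 RPM, 2.83 to 4.34) in library 2. At the start itself, at chr11:32199851-32200700, it held 143 reads (3.53 RPM, 2.98 to 4.16) and 78 reads (3.13 RPM, 2.47 to 3.90).

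The intervals of the *Il9r* heights overlapped within each library and between the libraries. In intron 1 the fold over the local background was 5.88 (one-sided exact Poisson p = 3.0e-62) and 5.13 (one-sided exact Poisson p = 1.0e-33), and at the start it was 6.12 (one-sided exact Poisson p = 1.2e-62) and 5.30 (one-sided exact Poisson p = 5.5e-31). They stood at the 98.2 and 97.1 percentiles of shared peaks. The start peak lay 28 bp before the main transcript Il9r-205 and had an AGATAA match 57 bp from its summit. The *Il9r* body as a whole held 5.45 and 6.28 times the mean read density of the library. *Il9r* was not unusual in the number of its peaks, since at least 2 were found at 19.2% of the genes of like length.

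**Figure D2:**
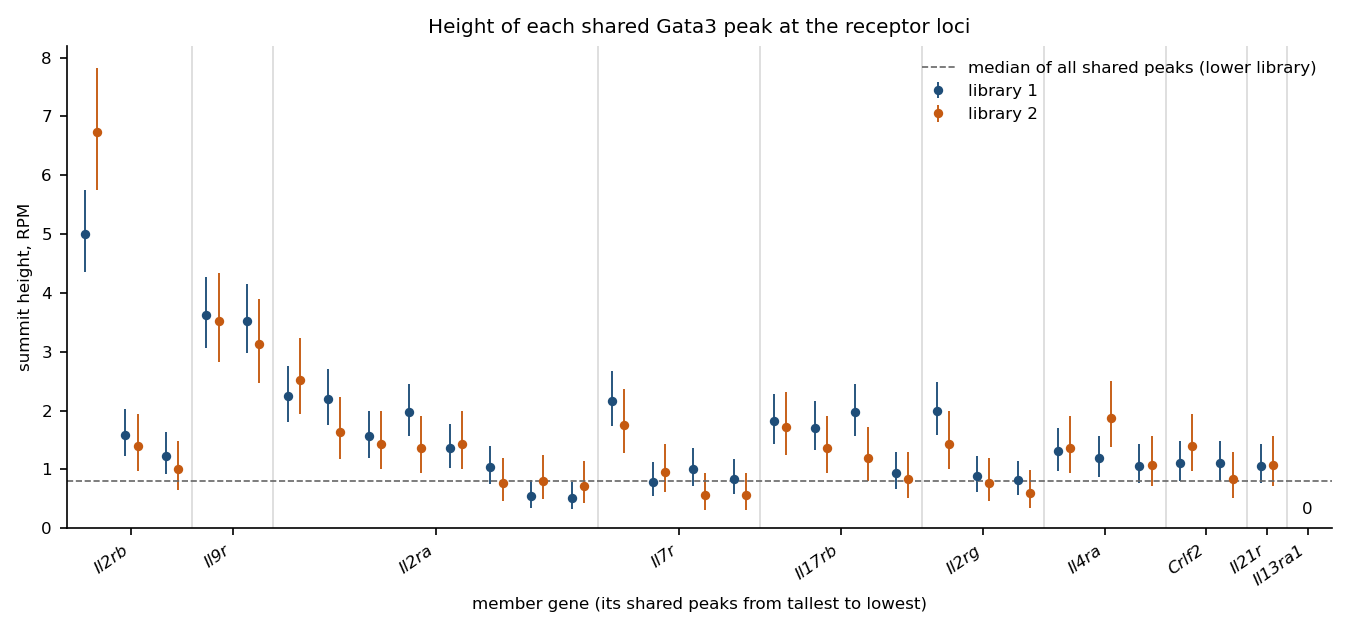
Summit height in RPM of every shared peak, grouped by gene and ordered from tallest to lowest, with library 1 in blue, library 2 in orange and bars for the 95% exact Poisson interval, which covers counting error only. The dashed line is the median height of all shared peaks of the genome (0.801 RPM). The *Il2rb* start peak and both *Il9r* peaks stand above the rest, and the peak between *Il4ra* and *Il21r* is drawn at both genes.

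*Il17rb*, the IL-25 receptor chain found on TH2 cells and innate lymphoid cells, lies on the minus strand of chromosome 14 (chr14:29996135-30008896) and has 11 exons. All 4 of its shared peaks lay upstream of it, and all 4 were inside the body of *Chdh*, a choline dehydrogenase gene that starts beside it and runs the other way. The tallest, at chr14:30009101-30009700, was 454 bp from the *Il17rb* start and 327 bp from that of *Chdh*. It held 74 reads (1.83 RPM, 3.69-fold, one-sided exact Poisson p = 2.0e-20) and 43 reads (1.72 RPM, 3.47-fold, one-sided exact Poisson p = 9.8e-12), with a TGATAG match 11 bp from the summit. A neighbouring peak at 1404 bp upstream held 69 reads (1.70 RPM) and 34 reads (1.36 RPM) with 2 GATA matches. To which of the 2 genes these promoter peaks belong cannot be told apart by position.

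The third *Il17rb* peak, 15654 bp upstream, had the highest fold over the local background of all 29 in library 1, at 8.0, and 5.64 in library 2. It held 80 reads (1.98 RPM) and 30 reads (1.20 RPM), with 3 GATA matches. The ratio of the libraries there was 1.64, which did not pass the test (two-sided exact binomial test, adjusted p = 0.18). The fourth lay at the edge of the locus, 19904 bp upstream, with 38 and 21 reads, and its summit in library 2 fell outside the locus. Of genes of like length, 1.91% had as many as 4 shared peaks.

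*Crlf2*, the private chain of the TSLP receptor, lies on the minus strand of chromosome 5 (chr5:109554709-109558993) and has 8 exons. Its taller peak was 5659 bp past the gene end, at chr5:109548601-109549300, with 45 reads (1.11 RPM, 4.59-fold, one-sided exact Poisson p = 2.4e-16) and 35 reads (1.40 RPM, 4.73-fold, one-sided exact Poisson p = 2.0e-13). The summits of the libraries were 200 bp apart there, and at the summit of library 1 no GATA match and 1 spaced STAT match were found. The other peak, in intron 2, 1593 bp past the start, held 45 reads (1.11 RPM) and 21 reads (0.841 RPM), with no match to GATA, AP-1 or either STAT spacing. It was within 2 kb of the start of the gene record, but 927 bp before a nearer coding start, and was lost as a promoter peak when the limit was 1 kb.

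*Il13ra1*, which joins *Il4ra* to form a receptor for IL-4 and IL-13 found mainly on cells other than lymphocytes, was the receptor gene without a shared peak. It lies on the plus strand of chromosome X (chrX:36112110-36171259) and has 11 exons. Library 1 alone had peaks in intron 2, with 32 reads (0.790 RPM, 4.71-fold), and in intron 8, with 17 reads (0.420 RPM, 4.34-fold) and 4 GATA matches. Library 2 held 11 reads (0.441 RPM, 2.93-fold, one-sided exact Poisson p = 0.0018) and 6 reads (0.240 RPM, 2.27-fold, one-sided exact Poisson p = 0.052) at these places, where 15 and 12 reads were needed for a call. Near its start the highest windows held 6 and 5 reads, centred 2010 bp before it in library 1 and 1390 bp past it in library 2. A shared peak at *Il13ra1* was thus not detected, and binding there is not shown to be absent.

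Read density over whole loci differed among the receptor genes more than between the libraries. *Il2ra* had 3.73 and 3.24 times the mean density of library 1 and library 2, and *Il2rb* had 3.41 and 3.72. *Il9r* followed with 2.68 and 2.70 and *Il4ra* with 2.29 and 2.53. The order of *Il2ra* and *Il2rb* was reversed between the libraries, so these neighbours in rank were not separated. *Il17rb* (2.21 and 2.18), *Il7r* (2.01 and 1.84), *Il2rg* (1.97 and 1.87) and *Il21r* (1.94 and 2.01) lay close together, and the last 3 changed order between the libraries.

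*Crlf2*, at 1.20 and 1.33, and *Il13ra1*, at 0.864 and 0.953, were the lowest loci. Among all protein-coding loci, *Il2ra* and *Il2rb* stood between the 99.6 and the 99.8 percentile in both libraries, and *Crlf2* stood at 35.8 and 50.1. Against the mean of chromosome X, *Il2rg* stood at 4.12 and 3.35 times and *Il13ra1* at 1.81 and 1.71 times, which placed *Il2rg* at the 99.6 and 99.1 percentile of X loci and *Il13ra1* at 69.0 and 63.4. The *Crlf2* gene body alone held 4.54 and 4.16 times the library mean, above the value of its locus, in which 28.1% of windows held no read. *Il17rb* was the opposite case, with 1.64 and 1.78 in the gene body, below the value of its locus in both libraries. The *Il4ra* body held 0 shared peaks and 2.38 and 2.43 times the library mean, close to the values of its locus.

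**Figure D3:**
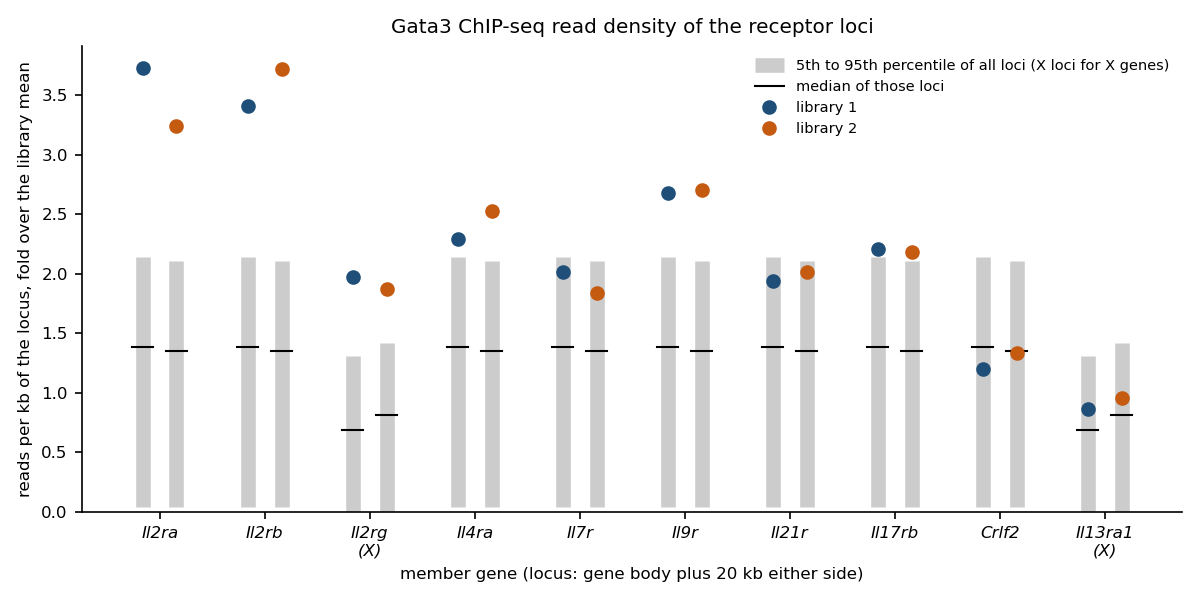
Reads per kb of each receptor locus as fold over the mean of the library (points, library 1 in blue and library 2 in orange), with grey bars from the 5th to the 95th percentile and black lines at the median of all protein-coding loci on the autosomes, or on chromosome X for *Il2rg* and *Il13ra1*. *Il2ra*, *Il2rb*, *Il2rg*, *Il4ra*, *Il9r* and *Il17rb* lie above their bars in both libraries, and the other 4 lie within them.

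Windows without reads were more frequent at *Il7r* and *Crlf2* than at the other receptor loci. In 30.4% of the 200-bp windows of the *Il7r* locus and 28.1% of those of *Crlf2* neither library had a read, against 23.4% over all chromosomes, gaps of the assembly included, with the longest such stretch 6200 bp and 4800 bp long. Of the 50-base stretches in those empty windows, 56.7% at *Il7r* and 41.5% at *Crlf2* occur elsewhere in the genome, against 3.11% and 5.62% in the rest of these loci. At the other loci 0% to 9.85% of windows were empty, with stretches of at most 2400 bp, and where there were any, 20% to 87.0% of the 50-base stretches in them occur elsewhere. The highest of these shares was at *Il4ra*, which had 2200 bp without reads in 1 run. Only uniquely placed reads were deposited, and the part of repeated sequence in the empty windows was not tested.

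The shared peaks were compared between the libraries in position and height. The summits lay within 100 bp of each other for 24 of the 29 peaks (79.0% of all shared peaks) and at the same position for 6 (25.9% of all shared peaks), and the widest gap was 250 bp, at the *Il7r* peak past the gene end. The ratio of library 1 to library 2 at the summit of library 1 ran from 0.745 to 1.94. Of the 29 peaks, 0 differed in height between the libraries at an adjusted p of 0.05 (two-sided exact binomial test, which covers counting error only), with 4 at an unadjusted p under 0.05. Over all 23806 shared peaks 461 (1.94%) differed, 391 higher in library 1 and 70 higher in library 2. Both libraries were counted in the highest window of library 1, which tilts these counts towards library 1. At the taller *Crlf2* peak the ratio of library 1 to library 2 was 1.63. At their own summits the libraries held 1.11 and 1.40 RPM there. The median height of the receptor peaks was 1.20 RPM in the lower library, against 0.801 RPM over all shared peaks, and 21 of 29 lay above the latter. Across the side-by-side windows of a locus, the Pearson correlation of the libraries ran from 0.484 at *Il13ra1* (496 windows) to 0.962 at *Il2rb* (280 windows) and *Il9r* (264 windows), where the windows share the same 2 libraries and are not replicates.

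Most shared peaks of the receptor loci lay outside the exons of the receptor genes' coding transcripts, and exons of other genes were not checked. Of the 29, 13 were upstream of their gene, 8 in introns, 5 past the gene end and 2 in exons, and the *Il9r* start peak lay before the coding transcripts but inside the gene record. The peak between *Il4ra* and *Il21r* was counted here as past the end of *Il4ra*, though it is also upstream of *Il21r*. For 21 of the 29 the nearest start site of a protein-coding gene was that of one of the receptor genes. Peaks inside another gene's body numbered 6, of which 4 were in *Chdh*, 1 in *Tmprss6* and 1 in *Gm20489*. The same counts were not made over all shared peaks, and the bounds of a locus limit where its peaks can lie.

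Library 1, the deeper library, had 24 further peaks in these loci that were not called in library 2, and library 2 had 2 that were not called in library 1. In the peaks of library 1 alone the fold over the local background was 2.13 to 5.00, and library 2 was above its own background at 21 of the 24. Of the 8 such peaks at *Il2ra*, 5 lay between intron 6 and exon 8, towards its 3′ end. The highest, in exon 8, held 66 reads (1.63 RPM) in library 1 and 25 reads (1.0 RPM, 2.37-fold) in library 2, where 27 reads were needed. Thinning library 1 at random to the read number of library 2 left 28 shared peaks in place of 29. Over the genome the thinned library 1 had 46891 peaks, against 71726 before thinning and 28204 in library 2. The cause of the remaining excess was not tested.

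**Figure D4:**
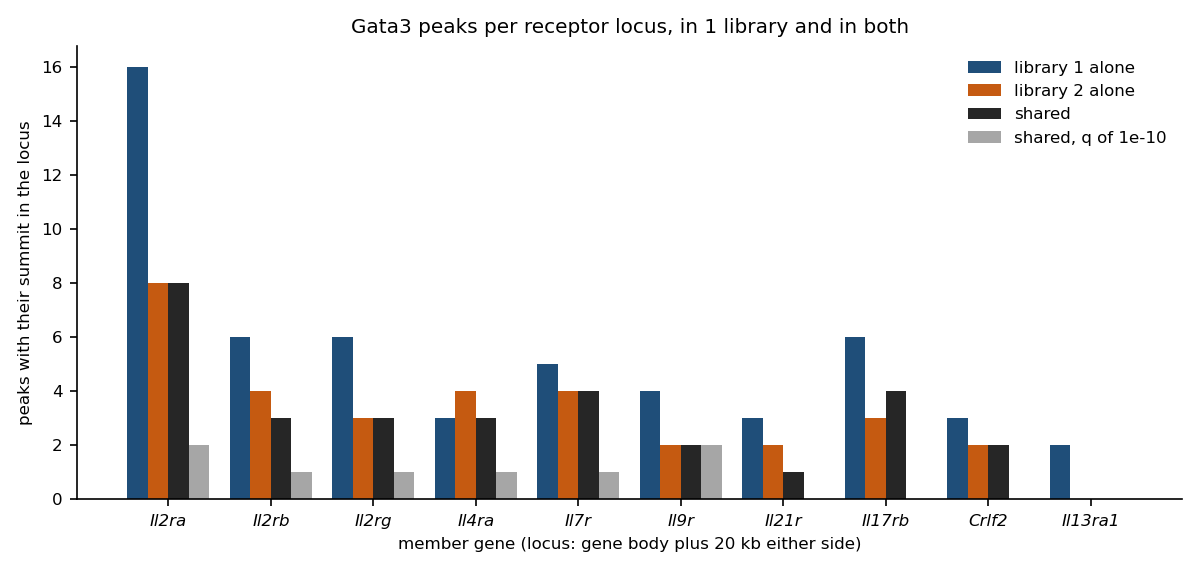
Number of peaks with their summit in each receptor locus, for all peaks of library 1 (blue), all peaks of library 2 (orange), peaks shared by both (black) and peaks shared at a q of 1e-10 (grey). The blue and orange bars, labelled as alone in the legend, include the shared peaks. *Il2ra* falls from 16 in library 1 to 8 shared and 2 at the strict setting, while *Il9r* keeps 2 under both shared settings.

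How the frequency of GATA letters at the receptor peaks compared with that at all Gata3 peaks depended on the setting. A match lay within 100 bp of 20 of 29 summits (69.0%), against 71.0% of all shared summits. In windows of the same length 1 kb to either side it was 15 of 58 (25.9%) beside the receptor summits and 33.4% beside all shared summits. Within 50 bp the count was 9 of 29, against 46.8% of all shared summits, with AGATAA alone it was 10 of 29, against 40.8%, and around the summits of library 2 it was 15 of 29, against 66.1%. At a q of 1e-10 it was 6 of 8, against 74.3%. More than 1 match was found at 8 of the receptor summits, and the share over all shared summits was not computed. AP-1 letters lay at 2 of 29 (6.90%, against 12.3% of all shared summits), in the upstream peaks of *Il4ra* and *Il7r*. RUNX letters (TGTGGT or TGCGGT) lay at 6 (20.7%, against 18.7%).

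STAT letters were counted for each spacing. TTC and GAA with 4 bases between them lay at 5 of 29 receptor summits (17.2%). The share was 5.94% over all shared summits and 5.60% over the windows beside those. With 3 bases between them, the spacing most STAT factors prefer, the same letters lay at 0 of 29, against 7.58% of all shared summits. In the windows beside the receptor summits each spacing lay at 3 of 58 (5.17%). Of the 9 receptor summits without GATA letters 3 held the wider spacing, against 439 of 6913 (6.35%) of all shared summits without GATA letters. These were the tallest peaks of *Il2rg* and *Crlf2* and the peak between *Il4ra* and *Il21r*, with the match 96, 80 and 7 bp from the summit of library 1. The matches at *Il2rg*, *Crlf2* and the *Il7r* peak past the gene end lay more than 100 bp from the summit of library 2. All these STAT counts used the summits of library 1 and were not repeated around those of library 2. The counts are small and the AP-1, RUNX and STAT letters were chosen during the work, so no test was made, and a match is not a measurement of a bound factor.

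Other genes of the same cytokine pathways also carried Gata3 peaks. A shared peak lay in the locus of 22 of 25 such genes, against the 54.8% of all genes given above, in the body of 11 (29.4% of all genes) and at the promoter of 8 (11.7% of all genes). In the locus it was 11 of 25 at a q of 1e-10 (19.6% of all genes) and 9 of 25 at 5-fold or more over the background (24.3% of all genes). Among the 9 ligand genes 8 had one. The tallest was the peak of 5.43 RPM counted at both *Il4* and *Il13*, whose loci overlap, and *Il9* had 1 of 1.88 RPM, while *Il7* had 0.

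For each group below, the share over all genes with a shared peak in the locus is 54.8%. All 4 kinase genes had a shared peak, with 12 at *Jak1*, 5 at *Jak2*, 3 at *Tyk2* and 2 at *Jak3*. All 4 genes of STAT factors had one, although *Stat3*, *Stat5a* and *Stat5b* are neighbours and share their tallest peak of 2.16 RPM. All 4 inhibitor genes had one too, with the tallest at *Cish*, a target and inhibitor of STAT5, at 4.35 RPM. Of the 3 other receptor chains only *Il17ra*, which pairs with *Il17rb*, had a shared peak, of 0.938 RPM, and *Il15ra* and *Il13ra2*, a decoy receptor for IL-13, had 0. The adaptor gene *Traf3ip2*, which acts in IL-25 signalling, had 1 of 0.716 RPM.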

How the data were processed

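Gata3 ChIP-seq (ChIPmentation) reads of 2 libraries of TH2 cells were analysed. The authors aligned single reads to GRCm38 and kept those with a unique position. The submitters' processing notes name Bowtie2 2.3.5.1 and MACS2 2.1.2. The deposited score of each read is its mapping quality (22 to 44), and 0 reads share a 5′ end and strand within a library, so peak heights are capped by the removal of duplicates. The tool that removed them is not given in the sources used here. The paper states that Bowtie2 was run with its default parameters, but scores this high are not reached in its default mode. The settings of the alignment are therefore uncertain. The deposited tables give read positions and no count per gene, and every count was computed here.

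Reads were shifted by 100 bp and counted in 200-bp windows every 50 bp. Windows called within 100 bp of each other were joined, with the summit at the window with the most reads. Peaks of library 1 and library 2 overlapping by 1 bp were shared, and were assigned to genes by the library 1 summit. The height is the lower of both libraries. Heights were compared between the libraries in the summit window of library 1 with the two-sided exact binomial test, adjusted over all shared peaks. Genes of like length were those whose locus length, flanks included, was within 20% of that of the member's locus. They included the member itself, and their peaks were counted at a q of 0.01 only. Gene models were from GENCODE M21 and sequences from the RefSeq copy of GRCm38. Calling and the binomial test were tested on simulated data.

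All 10 receptor genes and 25 pathway genes are named. In each locus the 3 tallest shared peaks and any within 2 kb of the start were described one by one, and sequence was printed for the tallest. Members, lists and settings were chosen with earlier results of these data known. The alternatives were other thresholds, windows, backgrounds, flanks, promoters, motif letters and scalings, thinning, and each library alone. Python 3.11.15 with NumPy 2.4.6, SciPy 1.17.1, Numba 0.67.0 and Matplotlib 3.10.9 was used.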

Additional observations from a re-analysis of the deposited data

How the results depend on the processing

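The 29 shared peaks became 8 at a q of 1e-10, 5 at 5-fold or more over the background in both libraries, 46 with flanks of 50 kb, and 30 to 53 when either replicate was left out in turn, the highest value being that of library 1 alone. Genes with a shared peak in the locus fell from 9 to 5 at 5-fold or more and ranged from 9 to 10 with a replicate left out. In the gene body 6 became 2 at 5-fold or more, with 6 to 9 for a replicate left out. At the promoter 5 became 2 under either stricter threshold, with 5 to 7 for a replicate left out. Promoter genes numbered 4 within 1 kb (*Crlf2* lost), 6 from 5 kb upstream to 1 kb downstream (*Il2rg* and *Il7r* gained, *Crlf2* lost) and 6 with any coding start (*Il2rg* gained). The 22 pathway genes became 9 at 5-fold or more and 11 at a q of 1e-10. The stricter thresholds give fewer by construction. GATA letters lay at 9 of 29 summits within 50 bp, at 10 as AGATAA only, at 15 by the summits of library 2 and at 6 of 8 peaks at a q of 1e-10, against 46.8%, 40.8%, 66.1% and 74.3% of all shared summits. Scaling by the median ratio made 1 peak differ between libraries in place of 0, that at the *Il2rb* start, with 342 (1.44%) of all shared peaks. The median density was 2.1 times the library mean over loci and 3.64 over gene bodies. The total number of shared peaks stayed within 1.5 times of 29 with 400-bp or 100-bp windows, a mapping quality of at least 30 (which removes few reads, since 99.5% and 99.4% had the top score), thinning, summits within 100 bp, local means without the central 1 kb, or the mean of the own chromosome, the last chosen after seeing the data. Of 110 counts for single genes 84 stayed within 1.5 times. Among those that did not, *Il17rb* went from 4 to 0 and *Crlf2* from 2 to 0 at a q of 1e-10. At 5-fold or more *Il2ra* went from 8 to 0, *Il7r* from 4 to 0 and *Il2rg* from 3 to 0. Without replicate 2 *Il2ra* rose from 8 to 16 and *Il2rb* from 3 to 6. With 100-bp windows *Il7r* and *Il17rb* went from 4 to 2 and *Crlf2* from 2 to 1. *Crlf2* also went from 2 to 1 with summits within 100 bp. The *Il2rb* start peak and both *Il9r* peaks were called under all 8 settings checked peak by peak, which leave out the mean of the own chromosome. No paired analysis was possible because both libraries form a single group. The lack of an input library limits the calls, and library 2 had fewer reads than library 1. Library 1 called more peaks over the genome also when thinned to the read number of library 2 (46891 against 28204), and the cause was not tested.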
